A study of Mus musculus with 54 samples.

Results

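The comparison described here set the ovaries of second-generation (F2) female mice whose mothers had been exposed to dose 2 of a drug mixture against the ovaries of F2 females from 2 control parents. Its members were the 6 ovary libraries that the labels give for these crosses, 3 against 3, out of 54 libraries in the series, 27 of them from ovary. The mixture held ibuprofen with its metabolite 2-hydroxyibuprofen, diclofenac and 17α-ethinylestradiol, and was given in the drinking water of pregnant mice and then of their offspring from 8.5 days after mating. Dose 2 held 113 ng/L ibuprofen, 225 ng/L 2-hydroxyibuprofen, 112 ng/L diclofenac and 45 ng/L ethinylestradiol. Dose 1 held 11.3, 90, 22.5 and 2.25 ng/L of the same compounds. Control animals drank water with 0.001% ethanol.

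In the cross of interest an unexposed F1 male was mated with a dose 2 F1 female, and the labels list the F2 females themselves as untreated. Females were sacrificed at 8 weeks, and every group shared the same cages, bottles and diet. The labels do not say which oestrous stage an ovary came from, or whether the 3 libraries of a group came from separate litters, so the tests measure only the spread between these libraries. The labels name no strain, and the same 3 control libraries serve every cross of this generation. The 4 other F2 crosses had both parents exposed to dose 2, the father exposed to dose 1 or to dose 2, or the mother exposed to dose 1, with 3 libraries each, and the F1 comparison used 3 dose 2 and 3 control females.

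Ibuprofen and diclofenac block the cyclooxygenases Ptgs1 and Ptgs2, which make the precursor of the prostaglandins, and prostaglandin E2 takes part in ovulation. Ethinylestradiol is a synthetic oestrogen that acts through the receptors Esr1 and Esr2. In a growing follicle, theca cells make androgens, granulosa cells turn them into oestrogens through the aromatase Cyp19a1 and secrete inhibins and activins, and after ovulation the follicle becomes the progesterone-making corpus luteum.

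The controls held 55342209, 43284553 and 45503389 counted reads and the mother dose 2 libraries 35642474, 60502153 and 53265809, so the group totals overlapped. Transcripts of the oocyte, granulosa, theca and luteal cells were present in all 6. Markers of the neighbouring oviduct summed to 151 to 171 CPM in the controls and 151 to 169 CPM in the mother dose 2 libraries. CPM are counts-per-million, the reads of a gene relative to the scaled library total. Over all ovary libraries the oviduct sums ran from 133 to 1493 CPM. Adipocyte markers leaned higher, at 287, 459 and 344 CPM in the controls and 467, 549 and 453 CPM in the mother dose 2 libraries. Control B lay above mother dose 2 C, and adipocyte sums ran from 220 to 1057 CPM over all ovary libraries. Red cell and striated muscle markers summed to at most 8.30 CPM in any of the 6. Of the 8 red cell markers, 4 had no counts in any of these libraries, so their sum says little about blood. Distances within and between the groups overlapped: the root mean square distance in log2 CPM was 0.461 to 0.493 among controls, 0.356 to 0.503 among mother dose 2 libraries and 0.338 to 0.529 between the groups. The first 2 principal components, with 32.8% and 28.5% of the variance, did not separate the groups.

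**Figure D1:**
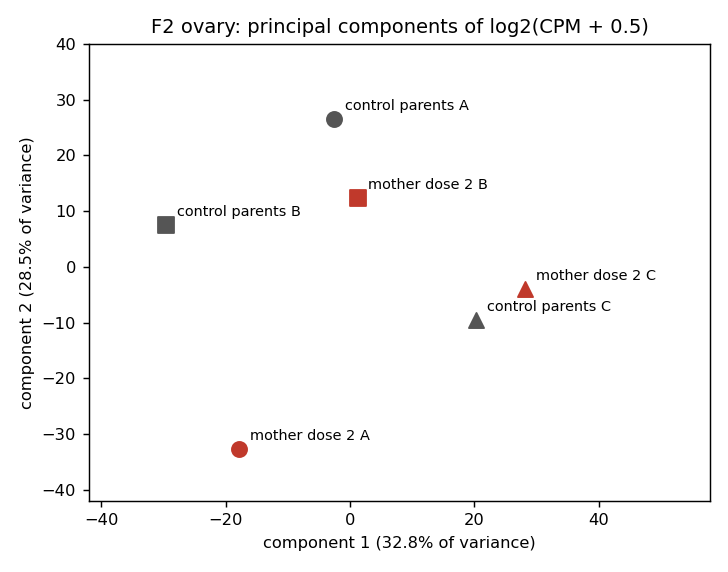
First and second principal components of the 6 libraries, from log2(CPM + 0.5) of 14547 genes, with colour for the group and marker shape for the replicate letter. Control C lies beside mother dose 2 C, and mother dose 2 A and control A lie at opposite ends of component 2.

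No gene passed an adjusted p of 0.05 between mother dose 2 and control ovaries (0 of 17454 genes tested, or 0%, edgeR's quasi-likelihood test with Benjamini-Hochberg adjustment; lowest adjusted p = 0.731). Before adjustment 1017 genes lay under 0.05, where 873 would lie if p-values were uniform. Of these, 515 were higher (2.95% of genes tested) and 502 lower (2.88%) in the mother dose 2 group. The 3 mother dose 2 libraries all lay above the 3 controls in 5.11% of genes and all below them in 5.38%. The median log2 fold change, mother dose 2 minus control, was -0.0082 over all genes and its median size was 0.13. The median half-width of the 95% interval was 0.36 on the log2 scale. For 13274 genes (76.1%) the whole interval lay within a 2-fold difference either way, and for 9796 (56.1%) within a 1.5-fold difference, while for the remaining genes the interval reached beyond these sizes.

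The genes of smallest p, which had an adjusted p of 0.731 each, are given as values. Kank2 (Entrez 235041), an adaptor between focal adhesions and the cytoskeleton, stood at 193, 190 and 196 CPM in the controls and at 249, 226 and 232 CPM in the mother dose 2 libraries. The difference was 0.29 ± 0.06 (log2, SE), or 1.22-fold, with a 95% interval of 0.17 to 0.41. The groups did not overlap, and the 3 mother dose 2 values were also above all 15 other F2 ovary libraries, which ran from 189 to 211 CPM. Itga10 (Entrez 213119), the α10 chain of a collagen-binding integrin, was at 11.7, 12.9 and 11.9 CPM in controls and 18.8, 15.7 and 19.7 CPM in mother dose 2 ovaries. Its 1.48-fold difference (0.57 ± 0.12) also put the mother dose 2 group above every other F2 library.

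Another 12 of the 20 genes lay higher in the mother dose 2 group. Napepld (Entrez 242864), which makes the lipid mediator anandamide and its relatives, was at 44.7, 40.8 and 51.8 CPM in controls and 97.6, 75.5 and 69.6 CPM in mother dose 2 ovaries, a difference of 0.82 ± 0.18. Faap100, a subunit of the Fanconi anaemia core complex of DNA repair, was at 35.5, 38.9 and 35.4 CPM against 89.8, 83.7 and 70.4 CPM (1.15 ± 0.25). Both genes differed from Kank2 in where the other crosses lay: the controls were the low group. Faap100 ran from 41.0 to 89.2 CPM over the other 12 F2 libraries, all above the 3 controls, and Napepld from 49.5 to 91.7 CPM, above controls A and B. Others higher in the mother dose 2 group included Stac2 (an adaptor of voltage-gated calcium channels), Clmp (a cell adhesion molecule), Man1c1 (a Golgi mannosidase), Snx15 (a sorting nexin), Dyrk1b (a protein kinase), Gab1 (an adaptor of receptor tyrosine kinases), Ap5z1 (a vesicle adaptor subunit), Tril (a partner of Toll-like receptor 4) and Sts (steroid sulfatase, which frees steroids from their sulfates). The log2 differences of these 9 ran from 0.27 in Ap5z1 to 1.08 in Stac2.

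The remaining 6 lay lower in the mother dose 2 group. Gdpd2 (Entrez 71584), a glycerophosphodiester phosphodiesterase, was at 43.7, 35.4 and 39.2 CPM in controls and 11.1, 21.7 and 16.6 CPM in mother dose 2 ovaries. This was 2.39-fold lower (-1.26 ± 0.27, 95% interval -1.84 to -0.68). Other crosses were low too, with Gdpd2 at 16.6 to 21.9 CPM in mother dose 1 and 12.6 to 21.9 CPM in father dose 1 ovaries. It was at 18.1 to 30.1 CPM in both parents dose 2 and 21.1 to 37.6 CPM in father dose 2 ovaries. Mri1, an enzyme of methionine salvage, was at 20.8, 21.1 and 21.5 CPM in controls and 15.7, 17.2 and 15.7 CPM in mother dose 2 ovaries. Stk31, a kinase of germ cells, was at 1.71, 1.99 and 1.66 CPM against 1.05, 1.12 and 0.918 CPM. Mother dose 1 and father dose 1 ovaries held 0.906 to 1.16 and 0.917 to 1.07 CPM of Stk31. Both parents dose 2 ovaries held 1.205 to 1.54 CPM and father dose 2 ovaries 1.75 to 1.92 CPM. Rbm20, a splicing regulator, differed by -0.75 ± 0.19 and Ltv1, an assembly factor of the small ribosomal subunit, by -0.34 ± 0.08. Rpl26, a ribosomal protein of the large subunit, was at 196, 48.1 and 161 CPM in controls and 35.9, 47.8 and 39.5 CPM in mother dose 2 ovaries, so control B lay beside the mother dose 2 libraries. Ribosomal protein genes have near-identical copies elsewhere in the genome that can share their reads, so the Rpl26 value is uncertain.

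**Figure D2:**
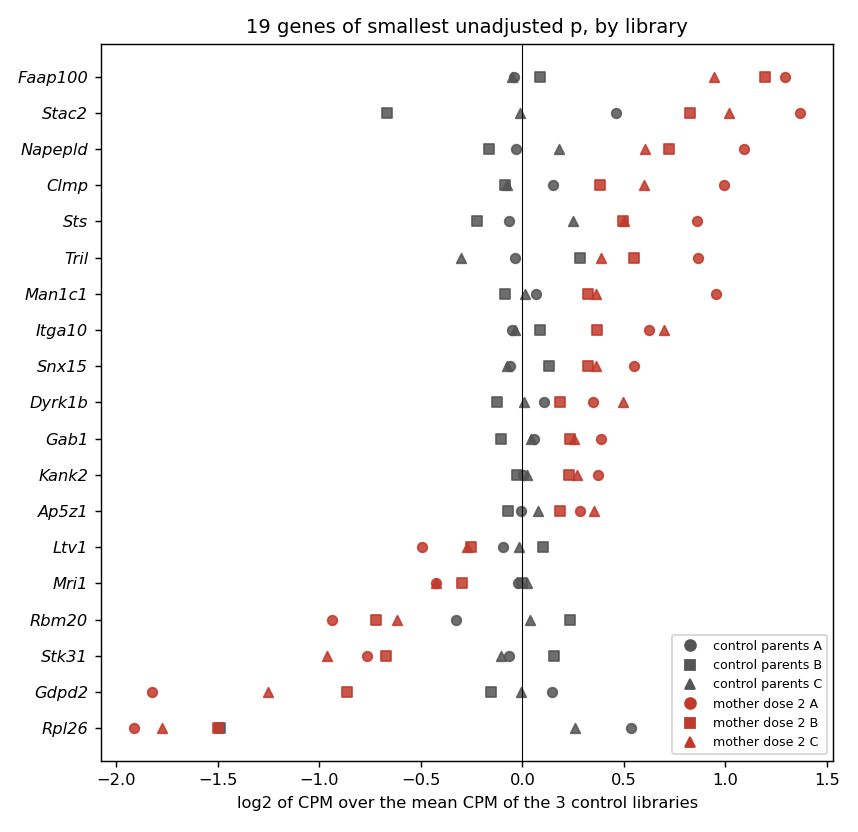
CPM of 19 of the 20 genes of smallest p in each of the 6 libraries, as log2 of the ratio to the mean of the 3 controls. The 13 higher and 6 lower genes shown do not overlap between groups, a feature of how they were chosen, and Rpl26 in control B lies next to the mother dose 2 libraries.

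The level of these genes in the other crosses was not used to choose them. The spread within those crosses was, since all 18 F2 libraries shared the fit that gave the p-values. The mother dose 2 libraries lay outside all 15 other F2 libraries in 2 of the 20 (Kank2 and Itga10), against 72 of all genes tested (0.413%). The 3 controls lay outside all 15 other libraries in 6 of the 20, against 90 of all genes tested (0.516%). Among these 6 they were lowest in Faap100, Dyrk1b and Ap5z1, and highest in Rbm20 and Ltv1. In Dyrk1b the controls were at 35.95, 30.7 and 33.7 CPM, the mother dose 2 libraries at 42.5, 38.0 and 47.1 CPM, and the other 12 F2 libraries between 36.4 and 41.2 CPM. Since the 20 were picked for a difference between controls and mother dose 2, some excess at either end follows from the choice. The shared fit also favours genes with little spread in the other 12 libraries, so the shares of all genes are not a like background.

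**Figure D3:**
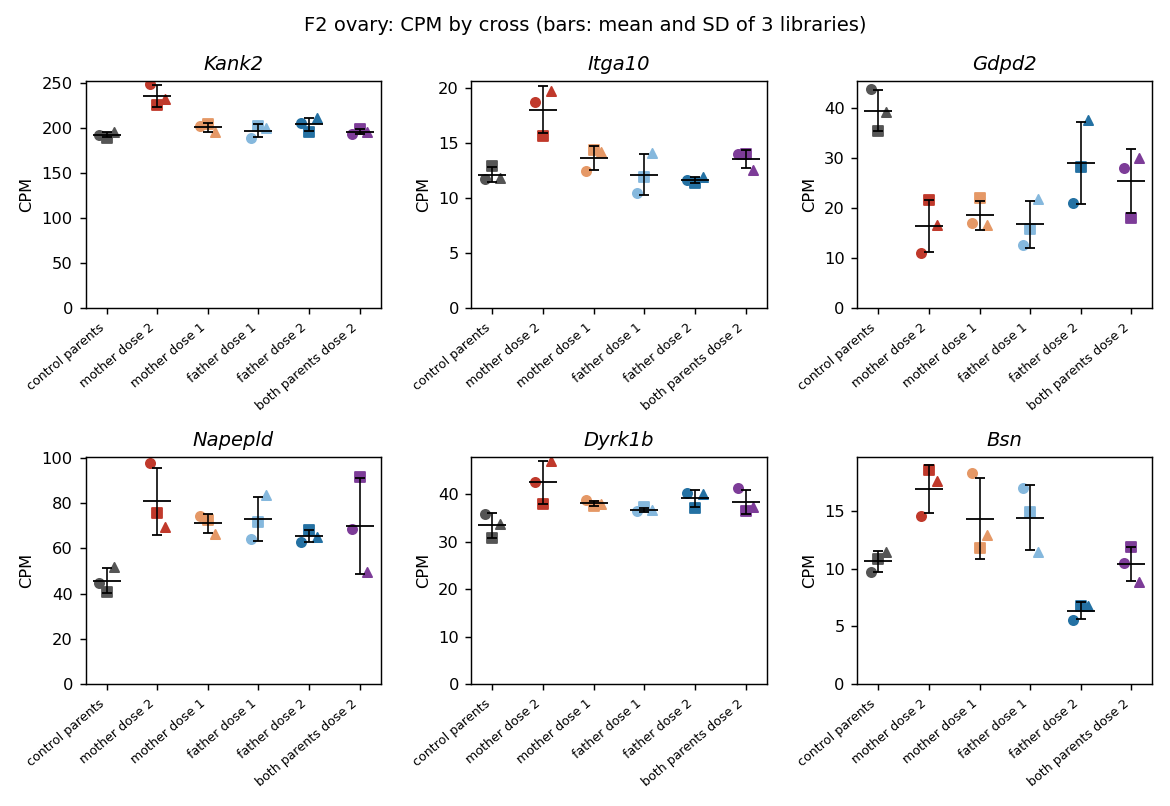
CPM of Kank2, Itga10, Gdpd2, Napepld, Dyrk1b and Bsn in the 18 F2 ovary libraries by cross, with points for libraries and bars for the mean and SD of 3. Kank2 and Itga10 are highest in the mother dose 2 group, Dyrk1b is lowest in the controls, and Bsn is lowest in the father dose 2 group at 5.53 to 6.81 CPM. In Gdpd2 the mother dose 1 and father dose 1 points overlap those of mother dose 2.

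A different count model called more. DESeq2 on the same 18 libraries called 14 of 16898 genes (0.0829%), 10 higher and 4 lower in the mother dose 2 group. Of these, 11 are among the 20, including Kank2 (adjusted p = 0.000115), Mri1, Itga10, Gdpd2, Napepld, Faap100, Stac2, Clmp, Snx15 and Rpl26. Kank2 was called in all 6 DESeq2 fits that left out 1 of the 6 libraries, and the other 13 in 2 or 3 of them. The number called ran from 2 without mother dose 2 C to 59 without mother dose 2 B.

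Among the DESeq2 calls outside the 20, 1 or 2 libraries stood apart. Prss22, a secreted serine protease, had 0 counts in all 3 controls and in mother dose 2 A, which allows up to 0.0534 to 0.0854 CPM in those libraries by counting error alone, and stood at 13.8 and 23.0 CPM in mother dose 2 B and C. It was also at 8.26 CPM in 1 father dose 1 library, 8.05 CPM in 1 father dose 2 library and 12.5 CPM in 1 both parents dose 2 library, and at most 0.154 CPM in the other F2 libraries. Lpcat2, an enzyme of platelet-activating factor synthesis, was at 8.17, 3.69 and 11.3 CPM in controls and 57.1, 11.4 and 25.1 CPM in mother dose 2 ovaries.

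Among the genes of the follicle, the granulosa list lay lower in the mother dose 2 group without any member passing the test. Of 20 genes 17 had a negative log2 fold change, the median was -0.26 against -0.0082 over all genes, and 4 had groups that did not overlap, all lower (background 5.38%). The summed level of the list was 10490, 9516 and 8192 CPM in the controls and 8008, 6765 and 6578 CPM in the mother dose 2 libraries. All mother dose 2 values lay under all control values, by a narrow margin between control C and mother dose 2 A. Control A had the highest sum of all 27 ovary libraries, and without it the median was -0.13. The father dose 2 cross stood with the controls at 8888 to 10169 CPM, and the mother dose 1, father dose 1 and both parents dose 2 crosses at 6477 to 8501 CPM. In bulk ovary, fewer cells of a type and less RNA per cell cannot be told apart.

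Inhba, which encodes the subunit of activin A and inhibin A, was at 1501, 812 and 823 CPM in controls and 517, 453 and 592 CPM in mother dose 2 ovaries. This was 2.01-fold lower (log2 SE 0.33, 95% interval -1.71 to -0.30, adjusted p = 0.731 with edgeR). The groups did not overlap, and without control A the difference was -0.64. Cyp19a1, the aromatase, was at 254, 96.5 and 102 CPM against 58.7, 36.0 and 51.9 CPM (-1.63 ± 0.68, interval -3.08 to -0.17), and the difference was -1.01 without control A. Fshr, the receptor for follicle-stimulating hormone, was at 54.8, 53.9 and 45.4 CPM against 31.0, 43.0 and 33.0 CPM (-0.53 ± 0.19). These 3 genes had no overlap between the groups, whereas Inha, the common subunit of the inhibins, did overlap at 3262, 3134 and 2461 CPM against 2578, 1987 and 1836 CPM. Fst, the activin antagonist follistatin, differed by -0.53 ± 0.23 with control A apart at 328 CPM. Bmp7, a ligand of the same family, lay the other way at 10.5, 10.6 and 13.4 CPM in controls and 31.9, 15.8 and 22.4 CPM in mother dose 2 ovaries (1.02 ± 0.27).

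**Figure D4:**
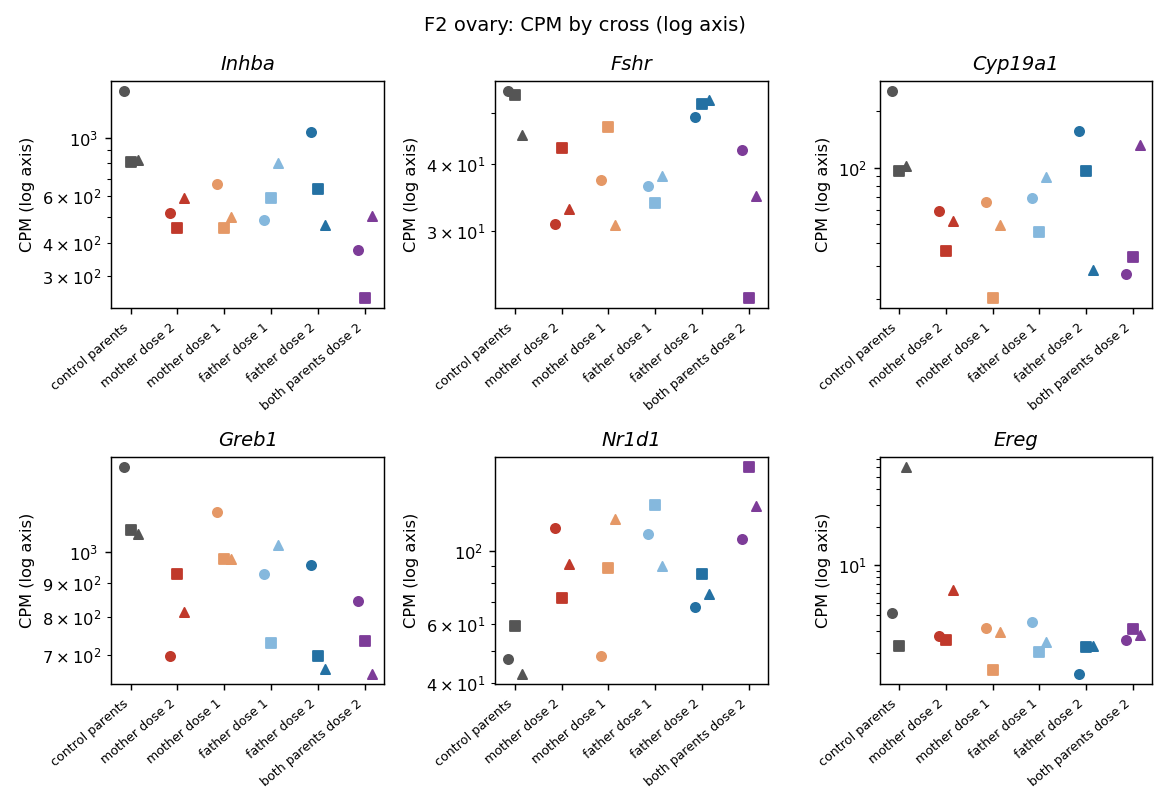
CPM on a log axis of the granulosa genes Inhba, Fshr and Cyp19a1, the oestrogen-responsive gene Greb1, the clock gene Nr1d1 and the ovulatory gene Ereg in the 18 F2 libraries by cross. In the first 5 panels the control and mother dose 2 points do not overlap and other crosses spread over both, and in the last control C is alone at 59.9 CPM.

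Theca, stromal and steroid-making genes gave mixed values. The theca and stroma list had a median of 0.15 with 12 of 18 genes higher, and the median was 0.02 without mother dose 2 A. Nr2f2, a nuclear receptor of stromal cells, was at 132, 132 and 135 CPM in controls and 183, 149 and 171 CPM in mother dose 2 ovaries (0.33 ± 0.09). Tcf21, a transcription factor of mesenchyme, and Gli2, a mediator of hedgehog signals, also lay higher in every mother dose 2 library (0.36 ± 0.13 and 0.37 ± 0.15). The steroid synthesis list had a median of 0.01 with 12 of 21 genes higher. In Star and Cyp17a1 mother dose 2 A stood apart from B and C. It held 3353 CPM of Star, the cholesterol carrier of steroid-making cells, against 437 and 992 CPM in B and C, and 54.0 CPM of Cyp17a1, the androgen-making enzyme of theca, against 1282 and 996 CPM. Controls held 312 to 799 CPM of Star and 664 to 1555 CPM of Cyp17a1. The corpus luteum list had a median of 0.14, which was -0.02 without mother dose 2 A. Ptgfr, the luteal receptor for prostaglandin F2α, was at 221, 144 and 533 CPM in controls and 712, 395 and 553 CPM in mother dose 2 ovaries, with overlap.

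The ovulation list turned on 1 control library. It had 14 of 18 genes lower and a median of -0.34, which became 0.40 without control C. Ereg, an EGF-like signal of the ovulating follicle, was at 4.13, 2.27 and 59.9 CPM in controls and 2.70, 2.52 and 6.31 CPM in mother dose 2 ovaries. Areg, its relative, was at 0.445, 0.162 and 2.13 CPM against 0.228, 0.212 and 0.191 CPM. Btc, another EGF-like ligand, was at 6.15 CPM in control C and at 1.09 to 1.48 CPM in the other 5 libraries. In each of the 3 control C was the highest of the 6 libraries. Cebpb, a transcription factor induced by luteinising hormone, differed from them in having no overlap, at 42.5, 44.8 and 48.2 CPM against 31.6, 40.6 and 35.6 CPM.

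Control C also set the values of the drug targets. Ptgs2 was at 1.10, 0.301 and 21.9 CPM in controls and 0.854, 2.39 and 2.07 CPM in mother dose 2 ovaries, and its difference turned from -2.12 ± 1.04 to 1.33 without control C. Ptgs1 was at 6.98, 4.98 and 33.8 CPM in controls and 12.1, 7.18 and 9.37 CPM in mother dose 2 ovaries, and turned from -0.68 ± 0.52 to 0.68. Of the 21 prostaglandin genes tested 8 were higher and 13 lower, with a median of -0.05 and no call. Ptger2, a prostaglandin E2 receptor, was at 13.5, 8.28 and 12.4 CPM in controls and 19.8, 14.6 and 14.7 CPM in mother dose 2 ovaries (0.52 ± 0.21), while Ptges, a prostaglandin E synthase, was at 147, 273 and 227 CPM against 156, 156 and 146 CPM.

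The oestrogen receptors differed by less than their errors, Esr1 by 0.18 ± 0.19 (interval -0.23 to 0.59) and Esr2 by 0.14 ± 0.20 (interval -0.30 to 0.57). Of 16 receptor and oestrogen-responsive genes 8 were higher and 8 lower, with a median of 0.02. Greb1, a coactivator of the oestrogen receptor, was at 1342, 1080 and 1066 CPM in controls and 697, 927 and 812 CPM in mother dose 2 ovaries (-0.52 ± 0.16, interval -0.87 to -0.17). It was at 656.7 to 1148 CPM over the other 12 F2 libraries. Rbbp8, a DNA end resection factor, lay lower by a smaller amount (-0.23 ± 0.09). Ltf, the iron-binding lactoferrin, had a positive difference that came from mother dose 2 A at 13.8 CPM, since B and C were at 1.04 and 0.516 CPM and the controls at 0.730, 0.811 and 0.0666 CPM.

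Oocyte genes leaned lower by small amounts. Of 28 genes 26 had a negative difference, with a median of -0.18 (-0.26 to -0.09 when each library was left out) and 4 without overlap, all lower (background 5.38%). Dppa3, a maternal factor that protects DNA methylation in the early embryo, was at 14.5, 15.1 and 12.5 CPM in controls and 11.6, 12.3 and 9.43 CPM in mother dose 2 ovaries (-0.33 ± 0.12). Figla, a transcription factor of the primordial follicle, was at 1.53, 2.04 and 1.51 CPM against 0.911, 1.48 and 1.07 CPM. The more abundant Gdf9, an oocyte growth factor, and Zp3, a protein of the zona pellucida, differed by -0.14 ± 0.13 and -0.16 ± 0.16, and their groups overlapped. Summed oocyte levels overlapped too, at 1064 to 1229 CPM in controls and 999 to 1126 CPM in mother dose 2 libraries.

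Extracellular matrix genes leaned the other way, with 28 of 30 positive, a median of 0.23 (0.14 to 0.27 when each library was left out) and 2 without overlap, both higher, a share near that of all genes (background 5.11%). Fn1, fibronectin, was at 282, 286 and 383 CPM in controls and 400, 437 and 414 CPM in mother dose 2 ovaries (0.40 ± 0.17). Nid1, a basement membrane protein, Eln, elastin, and Bgn, a small proteoglycan, differed by 0.31 ± 0.15, 0.46 ± 0.21 and 0.33 ± 0.16, and their groups overlapped. Without mother dose 2 A the 3 differences were 0.13, 0.27 and 0.14. The summed level of the list was 15668, 13951 and 18608 CPM in controls and 20469, 16812 and 19711 CPM in mother dose 2 libraries, with control C above mother dose 2 B.

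Clock genes were among those with no overlap between the groups. Nr1d1, the clock repressor REV-ERBα, was at 47.3, 59.5 and 42.6 CPM in controls and 117, 71.8 and 91.0 CPM in mother dose 2 ovaries (0.91 ± 0.29). Dbp, a clock output factor, was at 36.9, 29.7 and 25.2 CPM against 80.3, 50.9 and 47.8 CPM (0.96 ± 0.38). Nr1d2 differed by 0.42 ± 0.17, and Rbm3, an RNA-binding protein induced by cold, lay lower at 235, 196 and 208 CPM against 172, 184 and 154 CPM (-0.32 ± 0.09). Nr1d1 stood at 48.1 to 178.5 CPM in the other 12 F2 libraries, and the labels give no hour of sacrifice. Of the 20 clock and cold-inducible genes 9 were higher and 11 lower, with a median of -0.06. Groups did not overlap in 5 of the higher genes (background 5.11%) and 2 of the lower (background 5.38%).

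Genes of detoxification and oxidative defence gave scattered differences. Of 23 xenobiotic genes 10 were higher and 13 lower. Abcg2, an efflux pump, was at 34.5, 38.5 and 36.0 CPM in controls and 31.7, 33.2 and 30.2 CPM in mother dose 2 ovaries, and Ugt1a6a, a glucuronosyltransferase, differed by 0.62 ± 0.28. Abcb1b, another pump, was at 747 CPM in mother dose 2 A and at 116 to 208 CPM in the other 5 libraries. Among 26 antioxidant genes 8 were higher and 18 lower. Gpx3, the secreted glutathione peroxidase, was at 402, 282 and 447 CPM in controls and 934, 633 and 691 CPM in mother dose 2 ovaries (1.00 ± 0.32), and Slc7a11, the cystine importer, was at 5.23, 3.38 and 8.59 CPM against 2.62, 3.75 and 2.49 CPM, with overlap. The chaperones Hspa4l and Dnaja1 lay higher in every mother dose 2 library (0.53 ± 0.21 and 0.33 ± 0.15).

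Imprinted genes, which are expressed from 1 parental copy, were included because the exposed parent was the mother. Of 17 maternally expressed genes tested 8 were higher and 9 lower (median -0.0066), and of 18 paternally expressed genes 12 were higher and 6 lower (median 0.07). In 1 imprinted cluster Meg3 was at 226, 223 and 286 CPM in controls and 205, 156 and 171 CPM in mother dose 2 ovaries (-0.47 ± 0.19), Rian differed by -0.55 ± 0.23 and Mirg by -1.18 ± 0.36, all 3 maternally expressed noncoding RNAs. Dlk1, its paternally expressed protein gene, was at 16.3, 3.66 and 24.9 CPM in controls and 4.27, 2.77 and 3.56 CPM in mother dose 2 ovaries, with control B beside the mother dose 2 group. Meg3 was the 1 gene of these 4 without overlap. DNA methylation enzymes had a median of -0.06 over 13 genes, and Dnmt3a, a de novo methyltransferase, differed by 0.19 ± 0.11.

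Among the 6 libraries compared, control A held the highest sums of class II and macrophage genes. The 7 MHC class II genes summed to 1220, 512 and 332 CPM in controls and 420, 506 and 309 CPM in mother dose 2 libraries, and their median of -0.89 was -0.01 without control A. H2-Aa, a class II chain, was at 321, 143 and 70.5 CPM in controls and 76.4, 116 and 79.4 CPM in mother dose 2 ovaries. Macrophage genes had 18 of 20 lower, with a sum of 1220 CPM in control A and 493 to 733 CPM in the other 5 libraries, and a median of -0.22 that was 0.31 without control A. Cd3e, a T cell receptor subunit, lay at 1.17, 0.719 and 0.621 CPM in controls and 0.484, 0.521 and 0.383 CPM in mother dose 2 ovaries, without overlap (-0.86, and -0.52 without control A). H2-Ea and Ifi204, an interferon-induced gene, lay the other way and were picked out after their values were seen. H2-Ea was at 5.05, 2.43 and 0.444 CPM in controls and 24.3, 16.5 and 10.3 CPM in mother dose 2 ovaries, and Ifi204 at 16.1, 5.73 and 17.7 CPM against 70.9, 57.8 and 19.4 CPM, both without overlap. Ribosomal protein genes had 75 of 76 negative differences of small size, with a median of -0.11 that was -0.00043 without control B, and genes of dividing cells had 24 of 28 negative and a median of -0.14 that ran from -0.49 without mother dose 2 A to 0.07 without mother dose 2 C.

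**Figure D5:**
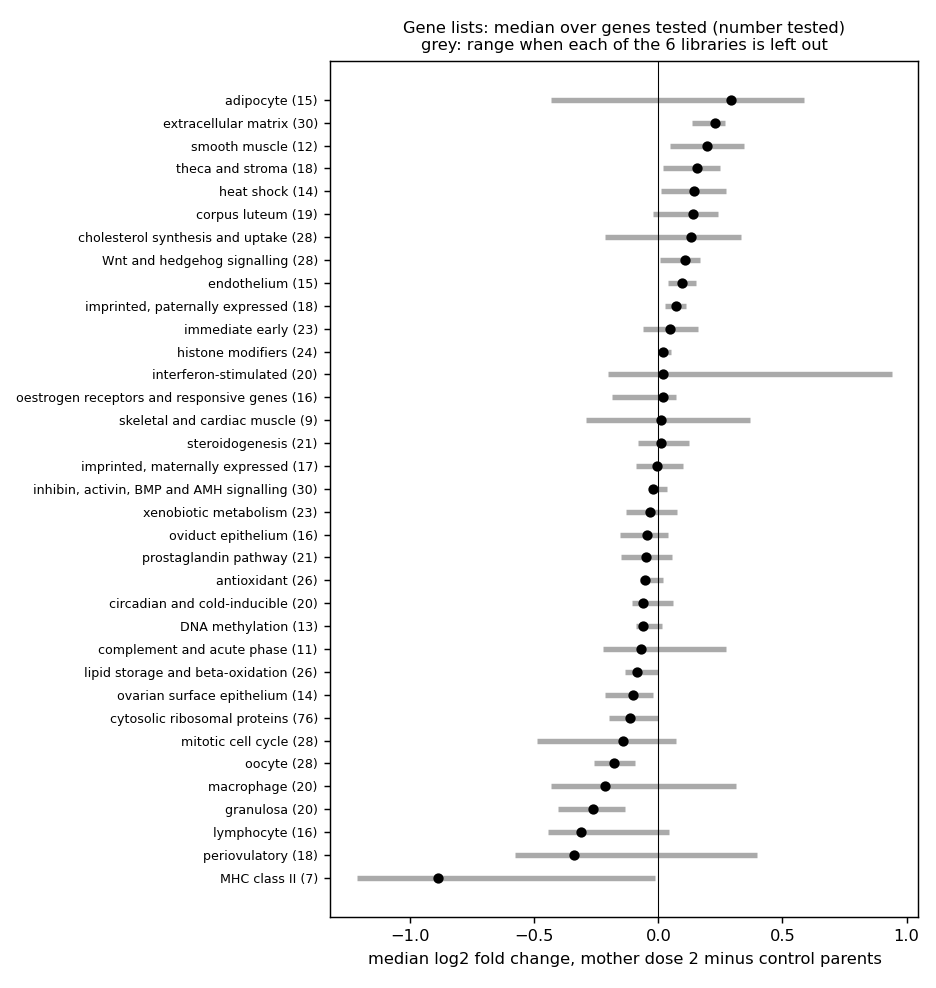
Median log2 fold change, mother dose 2 minus control, of each gene list with at least 5 tested genes, with grey bars for the range when each of the 6 libraries was left out. The granulosa and oocyte medians stay below 0 and the extracellular matrix median above 0 over that range. Other lists also keep their sign, among them endothelium (0.04 to 0.15), smooth muscle (0.05 to 0.35) and ovarian surface epithelium (-0.21 to -0.02). The ovulation, macrophage and interferon medians cross 0.

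The mother dose 2 group was next set against 3 other crosses, which leaves the control libraries out of the contrast. Against mother dose 1, which differs in the mother's dose, 0 of 17454 genes passed (0%), and against both parents dose 2, which adds an exposed father, none did either (0%). The lowest adjusted p was 0.364 and 0.0655 in these 2 (edgeR). Before adjustment 1487 genes lay under 0.05 against mother dose 1, 4386 against both parents dose 2 and 3559 against father dose 2. If p-values were uniform, 873 would lie there. Against father dose 2, in which the exposed parent was the father, 1 gene passed (0.00573%). It was Bsn (Entrez 12217), the presynaptic scaffold bassoon, at 14.6, 18.6 and 17.6 CPM in mother dose 2 ovaries and 5.53, 6.78 and 6.81 CPM in father dose 2 ovaries, 2.66-fold higher (log2 1.41 ± 0.19, adjusted p = 0.0275 with edgeR). The controls lay between at 9.70, 10.8 and 11.4 CPM. Against these shared controls Bsn differed by 0.67 ± 0.18 in the mother dose 2 group and by -0.74 ± 0.19 in the father dose 2 group, neither past the adjusted threshold. Mother dose 1 ovaries were at 18.4, 11.8 and 13.0 CPM, father dose 1 at 17.0, 14.9 and 11.5 CPM and both parents dose 2 at 10.5, 11.9 and 8.89 CPM. Mother dose 2 differed from mother dose 1 by 0.24 ± 0.18. The count against father dose 2 was 0 in the fits of only the 6 libraries and of all 27, with the replicate block, and without father dose 2 B, father dose 2 C or mother dose 2 C.

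The number of genes past the adjusted threshold in these 3 comparisons changed when single libraries were left out. Without mother dose 1 A 62 genes passed against mother dose 1, without father dose 2 A 424 passed against father dose 2, and without both parents dose 2 B 1921 passed against both parents dose 2. With each library left out, genes of unadjusted p under 0.05 numbered 1008 to 1797 against mother dose 1 and 2102 to 4127 against father dose 2. Against both parents dose 2 they numbered 2273 to 5007. DESeq2 on all 18 libraries called 85 of 16898, 872 of 13869 and 1933 of 13869 genes.

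Females of the F1 generation that drank dose 2 themselves, set against F1 controls, gave values with no shared library. Again 0 of 17168 genes passed (0%), although 2053 had an unadjusted p under 0.05. Of the 20 genes above, 10 had the same sign in F1 as in the F2 comparison. Mri1 was among these, at 23.1, 16.1 and 16.1 CPM in F1 controls and 14.2, 13.6 and 14.3 CPM in F1 dose 2 ovaries (-0.39 ± 0.16). Dyrk1b, at 0.27 ± 0.12, also kept its sign, and these were the 2 of the 20 with an unadjusted p under 0.05 in F1 (edgeR). Kank2 differed by 0.14 ± 0.13 and Gdpd2 by 0.42 ± 0.31. Among the granulosa genes named above, Inhba differed by 0.56 ± 0.31 and Fst by 0.20 ± 0.17. Fshr lay the other way at -0.49 ± 0.14, as did Inha (-0.20 ± 0.18) and Cyp19a1 (-0.09 ± 0.36). The sum of oviduct markers was 1493 and 743 CPM in F1 dose 2 A and B and 150 to 290 CPM in F1 dose 2 C and the F1 controls, whose part in these F1 values was not tested.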

How the data were processed

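Messenger RNA was sequenced from ovary, per the labels' protocols with TRIZOL extraction, a stranded ligation kit and 100 nt reads. The deposited values are raw counts, whole numbers for 26264 entries, of which 133 have a symbol without an Entrez ID and stayed in totals and tests. The submitters' processing notes name build mm39 and, in no stated order, featureCounts 2.0.3, DESeq2 1.32.0, TopHat2 2.1.1, SAMtools 1.13, Bowtie2 2.4.5, FastQC 1.19 and bcl2fastq 2.20. Strand setting and annotation for the counting were not given in the sources used here. Overlapping and antisense genes are therefore uncertain.

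From these counts, edgeR 4.0.16 (R 4.3.3; TMM scaling, filterByExpr with a minimum count of 10, robust quasi-likelihood test, Benjamini-Hochberg threshold of 0.05) was fitted to the 18 F2 ovary libraries together, and to the 9 F1 libraries for the F1 comparison, without a replicate block. CPM are TMM-scaled, fold changes are log2, SE come from the test statistic, and precision rests on 3 libraries a group. Alternatives were DESeq2 1.42.0, RLE scaling, no filter, a replicate block, only 6 or all 27 ovary libraries, and each library left out.

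The genes named are the 20 of smallest unadjusted p with a mean of at least 1 CPM and no predicted-gene symbol, because no gene passed, and from each list up to 4 members of smallest p, plus pathway genes named for their role. Members and lists were chosen with earlier results of these data known. Replicate letters were not treated as pairing the libraries. No 2 libraries of a group agreed within counting noise. Mitochondrially encoded genes were not analysed here. Male libraries were not used. Among genes that the naming rule or a test picked, 2 are not reported here.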

Additional observations from a re-analysis of the deposited data

Results flagged for a closer look

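Bsn differed between the maternal and the paternal dose 2 crosses by a test of the difference itself, as the 1 gene past the threshold when all 18 F2 libraries were fitted. The log2 difference, mother dose 2 minus father dose 2, was 1.41 ± 0.19 (SE, n = 3 libraries a cross), with an adjusted p of 0.0275 over 17454 genes (edgeR). All 3 mother dose 2 libraries lay above the controls and all 3 father dose 2 libraries below them. The mother dose 1 and father dose 1 libraries also lay above the controls, at 11.8 to 18.4 and 11.5 to 17.0 CPM, so the higher level was not particular to dose 2 mothers. No gene passed with the replicate block (lowest adjusted p = 0.0586 with edgeR), with only the 6 libraries (0.173) or with all 27 (0.168), while DESeq2 called 872 genes.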

How the results depend on the processing

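Between mother dose 2 and control ovaries the count of genes past the threshold was 0 under RLE scaling, without the low-count filter, with only the 6 libraries, with all 27 and with the replicate block (0), 0 to 1 when each library was left out (Slc15a1 passed without control C) and 14 with DESeq2. Leaving out libraries moved the DESeq2 count from 2 to 59, an alternative chosen after the data were seen, with 22 without control C. The replicate block gave 0 genes against father dose 2 and 2 in the F1 comparison, and changed no other count. The letters were not taken to pair the libraries, since no comparison had all 3 correlations over 0.1. The deviations of same-letter libraries from their group means correlated at -0.17 for A, 0.0955 for B and 0.41 for C between mother dose 2 and control, and 1 of 3 correlated best with its own letter. Between mother dose 2 and father dose 2 the values were 0.12, 0.076 and 0.21, and 3 of 3 correlated best with their own letter, a hint from the data and not the design.

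Against mother dose 1 the count was 0 to 62 without 1 library and 85 with DESeq2. Against father dose 2 it was 0 to 424 without 1 library, 0 with only the 6 libraries, 0 with all 27 and 872 with DESeq2. Against both parents dose 2 it was 0 to 1921 without 1 library and 1933 with DESeq2. In F1 it was 0 to 368 without 1 library (368 without F1 dose 2 C), 350 with all 27 ovary libraries and 353 with DESeq2. The cause of these moves was not tested.

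Of the genes named, 6 changed sign when 1 library was left out. The log2 difference ran from -3.07 to 0.28 in Ereg, -1.50 to 0.15 in Btc, -2.67 to 1.33 in Ptgs2 and -1.08 to 0.68 in Ptgs1, each positive only without control C. It ran from -0.99 to 0.12 in Cyp17a1, positive only without mother dose 2 A, and from -2.35 to 3.17 in Cwc22. RLE scaling and DESeq2 moved the median of all genes by 0.0043 and 0.0046 on the log2 scale. With 3 libraries a group, an estimated difference smaller than the half-width of its interval could not be told from 0, and larger ones could also go uncalled. The intervals are not adjusted for the number of genes tested. Gdpd2, with an interval of -1.84 to -0.68, had an adjusted p of 0.731 with edgeR.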

Other observations

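Cwc22, a splicing factor, took separate levels in libraries of the same group. It was at 42.3, 42.1 and 510.6 CPM in the controls and at 38.6, 38.9 and 1057 CPM in the mother dose 2 libraries. Over all 27 ovary libraries, 8 lay between 38.6 and 46.8 CPM and the others between 113 and 1427 CPM, in crosses of every kind. Some mice carry near-identical extra copies of this gene, so its count is uncertain.

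Akr1c18, the enzyme that inactivates progesterone in the regressing corpus luteum, was at 99.1, 8.14 and 1305 CPM in the controls and at 899.7, 178 and 1258 CPM in the mother dose 2 libraries. Insl3, a theca hormone, was at 3.81, 9.53 and 6.30 CPM in the controls and 3.10, 5.68 and 2.75 CPM in the mother dose 2 libraries. Soat1, which esterifies cholesterol, was at 882, 1004 and 797 CPM in controls and 751, 676 and 612 CPM in mother dose 2 ovaries, without overlap (-0.40 ± 0.19, adjusted p = 0.861 with edgeR). Pparg, a nuclear receptor of lipid metabolism, was at 42.8, 44.1 and 43.3 CPM in controls and 30.5, 39.3 and 38.4 CPM in mother dose 2 ovaries, also without overlap (-0.27 ± 0.14).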
